A study of Mus musculus with 46 samples.

Results

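Chromatin remodellers of the ISWI family move nucleosomes along DNA with energy from ATP. Each complex pairs 1 of the ATPases Smarca5 (SNF2H) and Smarca1 (SNF2L) with a larger partner that directs it to particular nucleosomes, often through a bromodomain, which binds acetylated histone tails. The partners followed here were Cecr2 (of the CERF complex), Bptf (of NURF), Baz1a (of ACF and CHRAC), Baz1b (of WICH), Baz2a (of NoRC) and Baz2b, the relative of Baz2a. These 8 genes, of 57067 in the 2 count tables, were described by their RNA levels in mouse synovial sarcomas. Cecr2 was chosen by its lower RNA level in Arid1a-fl than in control tumours, and the other genes by membership of ISWI complexes, so the Cecr2 difference in that comparison is given as a description with no test. The 8 genes passed the filter on low counts in both tables, and the lowest count behind any value was 21 reads, for Cecr2.

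RNA was sequenced from 46 tumours of mice, with 1 library per tumour. Every mouse carried the human fusion gene SS18::SSX2 (hSS2) or SS18::SSX1 (hSS1), silent until TATCre protein was injected into a limb at 8 days of age, and the control tumours carried the fusion and received the Cre protein as well. In the other groups the mice also carried homozygous floxed alleles of Pbrm1, Arid1a or Arid1b, which the same Cre protein can recombine. These genes encode subunits of the BAF family of remodellers, which the fusion protein joins. The paper reports a smaller loss of Pbrm1 RNA in hSS1 than in hSS2 Pbrm1-fl tumours. It proposes that cells with only 1 recombined Pbrm1 allele were selected in hSS1. The hSS2 groups were 13 control, 8 Arid1a-fl, 8 Arid1b-fl and 8 Pbrm1-fl tumours, and the hSS1 groups were 5 control and 4 Pbrm1-fl tumours. The study used littermates as controls, and the labels do not give litters. Both sexes were included, and neither the sex nor the age at harvest of single mice is given in the labels. Bulk tumour RNA also holds RNA of host cells, and fewer cells of a type cannot be told apart from less RNA per cell.

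Total counts ran from 10.6 to 21.3 M reads in hSS2 and from 10.1 to 14.1 M reads in hSS1. The labels number the mice, and each floxed group lies wholly below 1000, between 1000 and 2000, or above 2000, whereas controls span several of these ranges. Differences are therefore also given against the control libraries of the same range. The 6 synovial sarcoma markers Tle1, Bcl2, Sox11, Vim, Krt8 and Krt18 summed to between 422 and 1615 CPM (a gene's reads scaled by the TMM-adjusted library size) in the tumours. The floxed genes themselves had lower fitted RNA levels, as far as reads outside the removed exons allow. By edgeR the log2 fold difference was -0.95 for Arid1a (adjusted p 7.0e-05) and -1.27 for Pbrm1 in hSS2 (adjusted p 4.2e-12). It did not pass the threshold for Arid1b in Arid1b-fl (-0.80, adjusted p 0.145) or for Pbrm1 in hSS1 (-0.75, adjusted p 0.193). Arid1a ran from 229 to 276 CPM in Arid1a-fl and from 238 to 587 CPM in hSS2 control tumours, Pbrm1 from 95.03 to 139 CPM in hSS2 Pbrm1-fl against 171 to 316 CPM, Arid1b from 111 to 347 CPM in Arid1b-fl against 222 to 686 CPM, and Pbrm1 from 102 to 252 CPM in hSS1 Pbrm1-fl against 275 to 373 CPM. The lowest of these control values of Arid1a, 238 CPM, was in the library labelled hSS2 control replicate 9, which goes against its label. It was kept in its labelled group, and results that rest on it are also given without it.

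Per kilobase of exon, the 8 genes spanned more than 1 order of magnitude in hSS2 control tumours. Bptf was the most abundant, at a median of 25.5 CPM per kb, followed by Baz1b at 19.8, Smarca5 at 16.3, Baz2a at 15.5, Baz2b at 10.6 and Smarca1 at 6.99. Cecr2 (1.87 CPM per kb) and Baz1a (1.65 CPM per kb) were the scarcest. The ranges of neighbours in this order overlapped except at 1 step, where the lowest Smarca1 library (4.34 CPM per kb) lay above the highest Cecr2 library (3.97 CPM per kb). In hSS1 control tumours Cecr2 had a median of 8.15 CPM per kb and stood above Smarca1 (5.43 CPM per kb), with overlapping ranges.

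**Figure D1:**
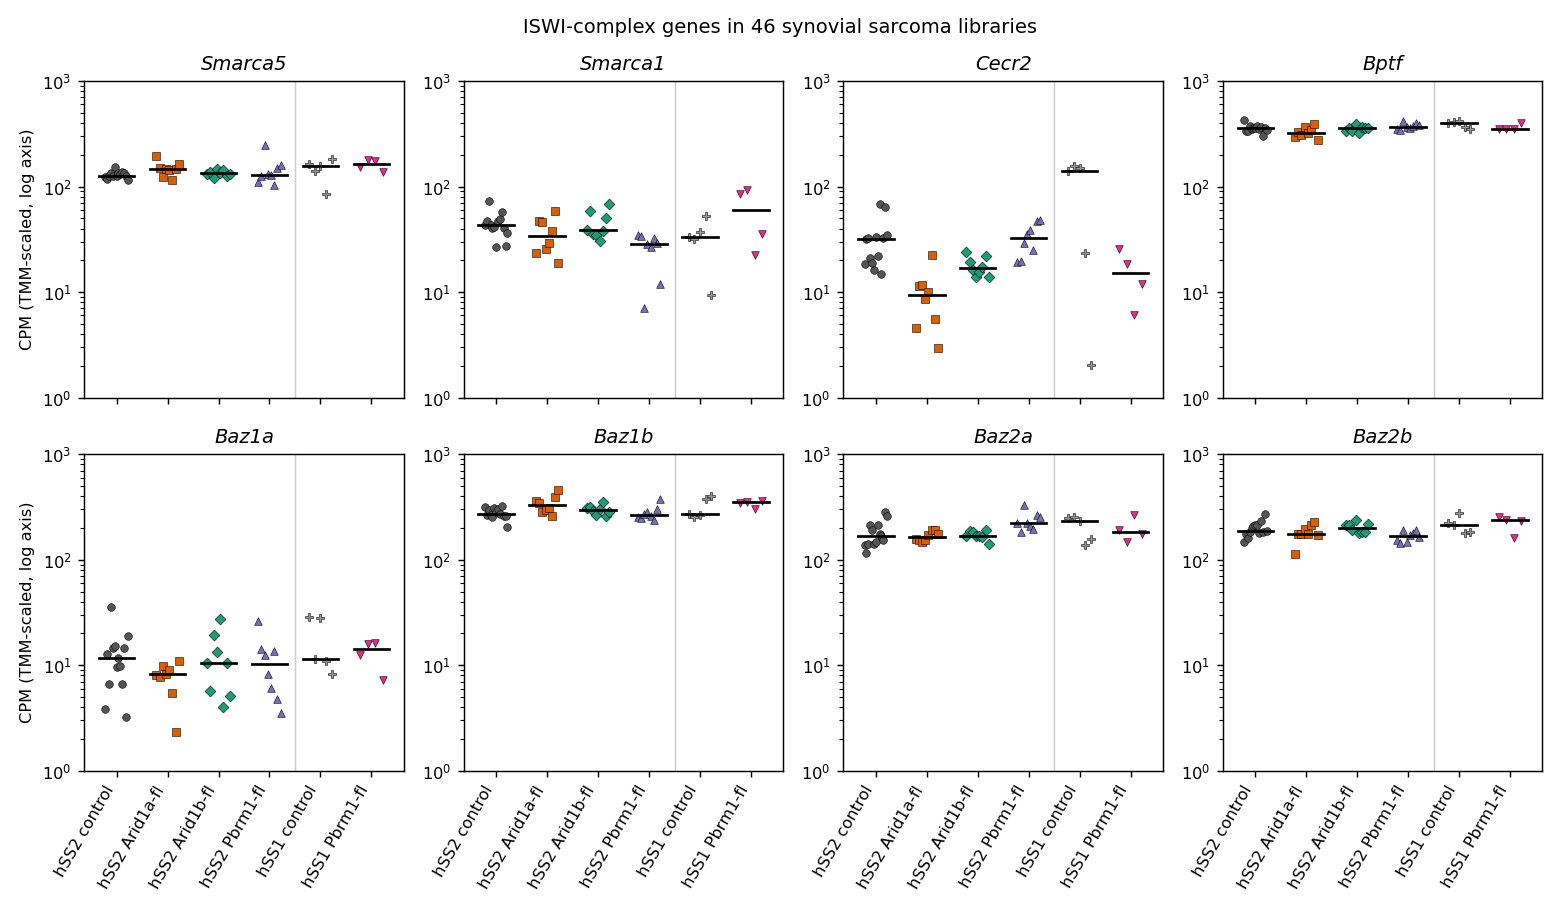
Levels of the 8 ISWI-complex genes in CPM (TMM-scaled, log axis) in each library of the 6 groups, with 1 point a library and a bar at the group median. Cecr2 is low in the Arid1a-fl group and split between about 2 and 157 CPM in hSS1 control tumours, while Bptf stays between 279 and 423 CPM in every library.

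The genes also differed in their spread between control tumours. Over the 13 hSS2 control libraries the SD of log2 CPM was 0.107 for Smarca5 and 0.111 for Bptf, at percentiles 0.391 and 0.538 of the 17657 genes with a mean of at least 1 CPM. Cecr2 (SD 0.70, percentile 70.9) and Baz1a (SD 0.92, percentile 80.5) varied most of the 8. In the 5 hSS1 control libraries the SD of Cecr2 was 2.69, at percentile 98.9. There Bptf had an SD of 0.112 (percentile 4.79), but Smarca5 was less steady, with an SD of 0.436 (percentile 57.1). The genes behind these percentiles were not matched for level.

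Cecr2 (chromosome 6, 120666369 to 120771190, plus strand, GRCm38), a bromodomain protein with a known part in neural tube closure, ran from 14.7 to 67.8 CPM in the hSS2 control libraries, with a median of 31.97 CPM. The 8 Arid1a-fl libraries held 2.95, 4.5, 5.6, 8.7, 9.9, 11.5, 11.7 and 22.4 CPM of Cecr2. Of these, 7 lay below every control library, and replicate 6, at 22.4 CPM, lay within the control range. The log2 fold difference was -1.70 (SE 0.31), and it was -2.15 against the 5 control libraries of the same mouse number range. Without control replicate 9, which had the highest Cecr2 of the controls (67.8 CPM) beside the low Arid1a named above, it was -1.55, and without Arid1a-fl replicate 6 it was -1.998.

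In Arid1b-fl tumours, where the paralogous BAF subunit was floxed, Cecr2 ran from 13.9 to 24.1 CPM with a median of 16.8 CPM. All 8 libraries lay below the control median and 2 lay below every control library, but the log2 fold difference of -0.82 (SE 0.30) did not pass the threshold (adjusted p 0.686). Against the 4 control libraries of the same range it was -0.34. In Pbrm1-fl tumours Cecr2 ran from 19.2 to 48.4 CPM with a median of 32.5 CPM, a log2 fold difference of 0.06 (SE 0.29, 95% interval -0.52 to 0.65, adjusted p 0.922). These comparisons share their control libraries with that of Arid1a-fl. Without control replicate 9 the Cecr2 differences were -0.70 in Arid1b-fl and 0.18 in Pbrm1-fl tumours. Set directly against each other, Arid1a-fl libraries were lower in Cecr2 than Pbrm1-fl libraries by a log2 difference of -1.76 (SE 0.33) and than Arid1b-fl libraries by -0.88 (SE 0.32), both given as descriptions.

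In hSS1 tumours the control libraries held 139, 157, 151, 23.4 and 2.01 CPM of Cecr2, replicates 1 to 5 in turn. The first 3 of these were the highest Cecr2 values of the series, and replicate 5 was the lowest, with levels of the 2 tables scaled separately. The 4 hSS1 Pbrm1-fl libraries held 25.4, 18.5, 6.02 and 11.95 CPM, all below the control median and all within the control range. The log2 fold difference of -2.61 (SE 1.03) did not pass the threshold (adjusted p 0.250). With DESeq2 it did (-2.62, adjusted p 0.0489), and against the 3 control libraries of the same range it was -1.93 (adjusted p 0.503).

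The Pbrm1-fl effect on Cecr2, hSS1 minus hSS2, was a log2 difference of -2.68 (SE 0.73, adjusted p 0.0355). The fit of all 46 libraries shares 1 estimate of spread between the backgrounds. In hSS1 alone the SE was 1.03, and the SD of log2 CPM among controls was 2.69 in hSS1 and 0.70 in hSS2. The SE of 0.73 therefore does not measure the spread of the hSS1 tumours alone. The call also rested on the choice of libraries. It was kept in 22 of 30 fits that each left out 1 library, and was lost (adjusted p 0.0519 to 0.0809) without any 1 of hSS1 control replicates 1, 2 and 3, hSS1 Pbrm1-fl replicates 2, 3 and 4, or hSS2 Pbrm1-fl replicates 7 and 8. Without hSS2 control replicate 9 it was -2.79 (adjusted p 0.0261), and against control libraries of the same mouse number range -2.28 (adjusted p 0.248). The fitted fall of Pbrm1 itself was unequal, at -0.75 (SE 0.24) in hSS1 and -1.27 (SE 0.09) in hSS2 Pbrm1-fl tumours. By edgeR the difference of these was 0.51 (SE 0.19, adjusted p 0.125). Its part in the Cecr2 result was not tested.

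**Figure D2:**
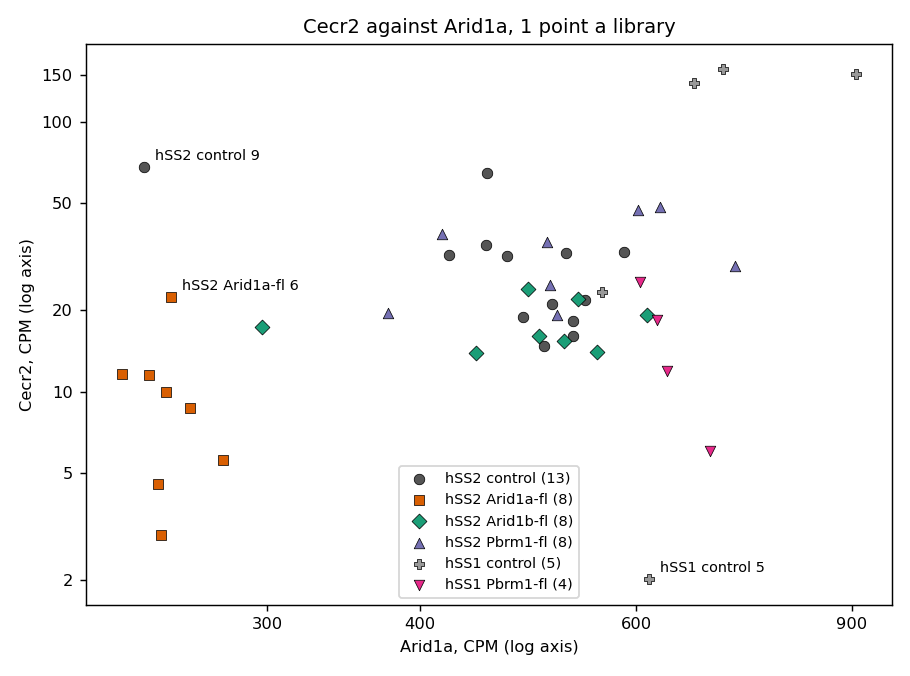
Cecr2 against Arid1a, both in CPM on log axes, with 1 point a library and the number of libraries of each group in the key. The Arid1a-fl libraries form the low Arid1a cluster at 2.95 to 22.4 CPM of Cecr2, and the library labelled hSS2 control replicate 9 shares their Arid1a level with 67.8 CPM of Cecr2.

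Arid1a itself varied within groups in which it was not floxed, from 376 to 722 CPM in hSS2 Pbrm1-fl and from 297 to 612 CPM in hSS2 Arid1b-fl tumours. Across the 8 Pbrm1-fl libraries Cecr2 and Arid1a gave Pearson's r = 0.42 (two-sided exact permutation p 0.299, adjusted over 2 groups 0.597) and Spearman's rho = 0.33 (exact permutation p 0.428, adjusted 0.840). Across the 8 Arid1b-fl libraries r was 0.09 (exact permutation p 0.852, adjusted 0.852) and rho 0.10 (exact permutation p 0.840, adjusted 0.840). Without the 2 libraries farthest from the median Arid1a level, r was 0.36 in Pbrm1-fl and 0.09 in Arid1b-fl tumours. A relation of the Cecr2 and Arid1a levels was not detected within either group.

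Next to Cecr2 on chromosome 6, 9 genes within 250 kb had a mean of at least 1 CPM in hSS2. None of them passed the threshold in any of the 4 comparisons with controls, by edgeR. In Arid1a-fl tumours their log2 fold differences ran from -0.75 (Gm44260, SE 0.33) to -0.01 (Mical3, SE 0.12), all below 0. The median over all genes tested was -0.04 there, and Gm44260 had a median of only 0.89 CPM in that group. The nearest of the 9 upstream, Hdhd5, stood at a median of 24.3 CPM against 28.9 CPM in controls (log2 fold difference -0.26, SE 0.15). The nearest downstream, Atp6v1e1, a subunit of the proton pump of lysosomes, stood at 57.2 against 56.8 CPM (-0.17, SE 0.12). In hSS1 Pbrm1-fl tumours 8 of the 9 were also below 0, among them Bcl2l13 at -0.59 (SE 0.16) and Bid, which promotes cell death, at -1.16 (SE 0.46), and Il17ra was above 0 at 1.02 (SE 0.44). Bcl2l13 ran from 115 to 137 CPM in the hSS1 control and from 68.4 to 112 CPM in the Pbrm1-fl libraries, with no overlap. It did not pass the threshold by edgeR (adjusted p 0.152). The share of all genes below 0 is not given, so nothing is read from the numbers of neighbours below 0.

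**Figure D3:**
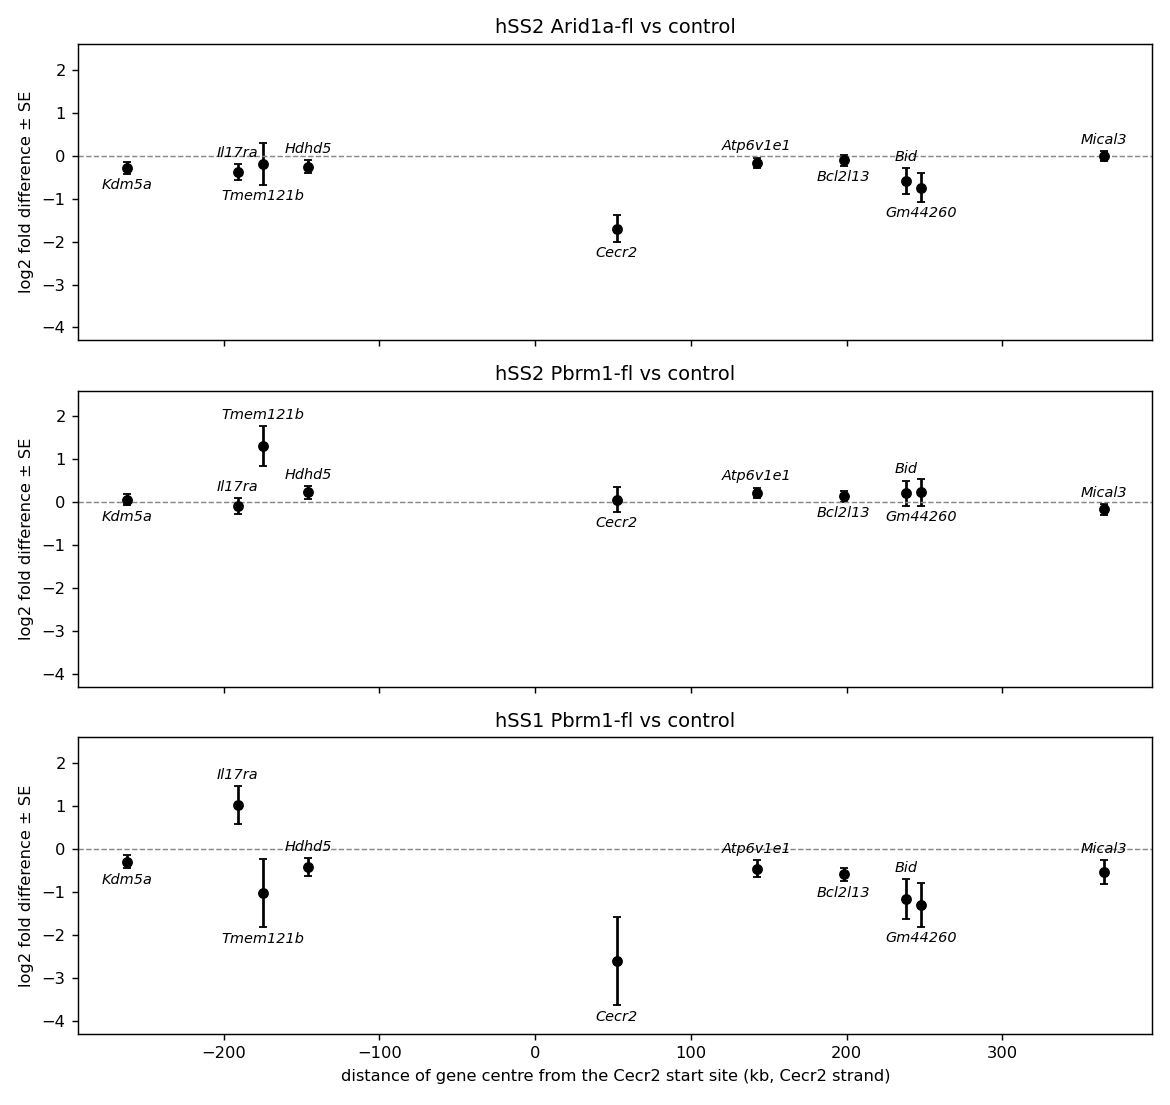
Fitted log2 fold differences (points, with bars of 1 SE) of Cecr2 and its 9 neighbours against the distance of each gene's centre from the Cecr2 start site in kb, in 3 comparisons. In Arid1a-fl tumours Cecr2 lies at -1.70 and its neighbours between -0.75 and -0.01.

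The genes whose levels went most closely with Cecr2 over the 37 hSS2 libraries, of 14137 protein-coding genes, were Pex11a (r = 0.85), Parp12 (r = 0.85), Mblac2 (r = 0.84) and Tm7sf3 (r = 0.83). Those that went most against it were Caprin1 (r = -0.79), Plod1 (r = -0.79), Serpinh1 (r = -0.78) and Kdelr2 (r = -0.77). Plod1, a lysyl hydroxylase of collagen, ran from 128 to 351 CPM in Arid1a-fl and from 45.6 to 252 CPM in hSS2 control tumours. Parp12, an ADP-ribosyltransferase, ran from 22.1 to 50.8 CPM in Arid1a-fl and from 34.2 to 81.3 CPM in hSS2 control tumours. These libraries share the difference between groups. After centring on group means r was between 0.63 and 0.70 for the first 4 and between -0.63 and -0.56 for the last 4. In the 9 hSS1 libraries r was 0.07 for Pex11a, -0.43 for Parp12, 0.43 for Mblac2 and -0.07 for Tm7sf3. It was 0.0032 for Caprin1, -0.78 for Plod1, -0.55 for Serpinh1 and -0.68 for Kdelr2. Only 1 of the 8 names would be chosen with centred values, and 4 of 8 with Spearman's rho.

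Smarca5 (chromosome 8, 80698507 to 80739497), the ATPase found in most ISWI complexes, held 115 to 154 CPM in hSS2 control tumours, with a median of 126 CPM. Its medians in the other hSS2 groups were 148 CPM in Arid1a-fl, 134 CPM in Arid1b-fl and 130 CPM in Pbrm1-fl tumours. Each of these 3 groups overlapped the controls, and no comparison passed the threshold (log2 fold differences 0.20, 0.05 and 0.16, adjusted p 0.249, 0.980 and 0.364). The highest value of the series was 248 CPM in Pbrm1-fl replicate 3. In hSS1 the control libraries held 163, 141, 158, 84.5 and 184 CPM, and the Pbrm1-fl libraries 155, 177, 173 and 139 CPM (log2 fold difference 0.14, SE 0.21, adjusted p 0.767).

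Smarca1 (chromosome X, 47809368 to 47892974), the ATPase of NURF and CERF, fell in hSS2 Pbrm1-fl tumours. The 8 Pbrm1-fl libraries held 34.5, 33.8, 7.07, 28.4, 26.5, 32.6, 29.2 and 11.9 CPM, and the 13 control libraries ran from 26.6 to 72.6 CPM with a median of 42.8 CPM. All 8 lay below the control median and 3 lay below every control library. On the log2 scale Smarca1 changed by -0.79 (SE 0.24) in Pbrm1-fl tumours, with an adjusted p of 0.0348. The adjusted p was 0.0501 to 0.0816 without any 1 of Pbrm1-fl replicates 3, 4, 5 and 8 or control replicate 10. Against the 4 control libraries of the same range the log2 fold difference was -1.01 (adjusted p 0.0737). The 6 synovial sarcoma markers were also lower in sum, at 422 to 728 CPM in Pbrm1-fl and 512 to 983 CPM in control tumours, and went with Smarca1 over the 37 hSS2 libraries (r = 0.48, and 0.23 after centring on group means). Their part in the result was not tested.

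In the other groups Smarca1 did not pass the threshold against controls. Arid1a-fl libraries ran from 18.7 to 58.9 CPM, with 3 of 8 below every control library (log2 fold difference -0.30, adjusted p 0.448), and Arid1b-fl libraries from 30.7 to 68.0 CPM (0.01, adjusted p 0.999). In hSS1 the Pbrm1-fl libraries held 84.6, 93.4, 22.4 and 35.4 CPM and the control libraries 33.2, 31.5, 37.3, 52.3 and 9.4 CPM. The 2 highest Pbrm1-fl libraries lay above every control library and the other 2 within their range (log2 fold difference 0.85, SE 0.53, adjusted p 0.433).

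The Pbrm1-fl effect on Smarca1 was higher in hSS1 than in hSS2, by a log2 difference of 1.63 (SE 0.48, adjusted p 0.0489). The spread was again shared between the backgrounds. In hSS1 alone the SE was 0.53, and the SD of log2 CPM among controls was 0.93 in hSS1 and 0.39 in hSS2. The call of the difference was kept in 11 of 30 fits that each left out 1 library. It was lost (adjusted p 0.0506 to 0.155) without any 1 of hSS2 control replicates 3, 4, 5, 6, 8, 9, 10 and 11, hSS2 Pbrm1-fl replicates 3, 4, 5, 7 and 8, hSS1 control replicates 1, 2, 3 and 5, or hSS1 Pbrm1-fl replicates 1 and 2. Against control libraries of the same range the difference was 1.82 (adjusted p 0.184). The fitted falls of Pbrm1 given with Cecr2, whose difference did not pass the threshold, apply here too, and their part was not tested. Cecr2 and Smarca1 were the members past the threshold, 1 lower and 1 higher in hSS1, or 2 of 8 where 2.86% of the 21725 genes tested passed it.

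**Figure D4:**
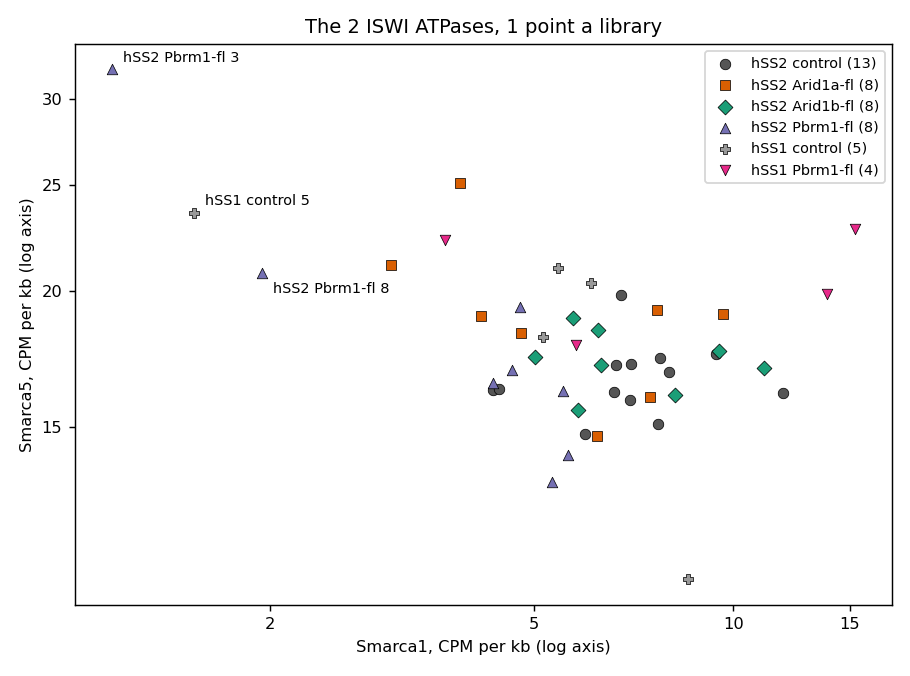
Smarca5 against Smarca1 in CPM per kb of exon on log axes, with 1 point a library. The libraries farthest to the left, with the lowest Smarca1, are hSS2 Pbrm1-fl replicates 3 and 8 and hSS1 control replicate 5.

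The ATPases went against each other across hSS2 libraries, with r = -0.60 between Smarca1 and Smarca5 over 37 libraries and -0.63 after centring on group means. Pbrm1-fl replicate 3, with the lowest Smarca1 and the highest Smarca5, carried part of this. Without it r was -0.34, and -0.44 after centring. Smarca5 exceeded Smarca1 per kilobase in every library, with medians of the ratio of 2.44 in hSS2 control, 3.17 in Arid1a-fl, 2.68 in Arid1b-fl and 3.72 in Pbrm1-fl tumours. The ratio reached 27.6 in Pbrm1-fl replicate 3 and 15.4 in hSS1 control replicate 5. In the 9 hSS1 libraries r between the 2 genes was -0.28.

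Bptf (chromosome 11, 107033081 to 107132127), the large subunit of NURF that reads histone H3 methylated at lysine 4, was among the steadiest genes. It ran from 302 to 423 CPM in hSS2 control tumours (median 359 CPM) and from 279 to 390 CPM in Arid1a-fl tumours (median 325 CPM), a log2 fold difference of -0.12 (SE 0.06, adjusted p 0.217). Pbrm1-fl and Arid1b-fl medians were 368 and 358 CPM (0.06 and -0.01, adjusted p 0.573 and 0.992). In hSS1 the control libraries held 401, 409, 419, 364 and 350 CPM and the Pbrm1-fl libraries 354.5, 353.6, 353.5 and 404 CPM (-0.09, adjusted p 0.715).

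Baz1a (chromosome 12, 54892989 to 55014348), the ACF subunit that spaces nucleosomes together with Smarca5, varied widely within groups, with the highest SD of log2 CPM of the 8 genes in hSS2 control tumours. It ran from 3.24 to 35.5 CPM in hSS2 control, 2.33 to 10.96 CPM in Arid1a-fl, 4.04 to 27.7 CPM in Arid1b-fl and 3.56 to 26.4 CPM in Pbrm1-fl tumours. All 8 Arid1a-fl libraries lay below the control median of 11.8 CPM, with a log2 fold difference of -0.70 (SE 0.39, adjusted p 0.276). Its level went with markers of some host cells and not of others. Over the 37 hSS2 libraries r with the log2 summed level was 0.83 for 8 macrophage markers, 0.77 for 8 lymphocyte markers, 0.77 for 5 Schwann cell markers and 0.72 for 6 adipocyte markers. It was 0.58 for skeletal muscle, 0.26 for red cell, 0.26 for keratinocyte and -0.0067 for endothelial markers, and -0.10 for 20 proliferation genes. For the synovial sarcoma markers r was 0.40, and 0.54 after centring on group means. Bulk levels do not tell which cells held the Baz1a RNA, and this was not tested. Control replicate 4 had the highest Baz1a (35.5 CPM) and the highest macrophage sum of the controls (485 CPM), and Pbrm1-fl replicate 1 was likewise highest in its group for both (26.4 and 726 CPM). Macrophage sums ran from 60.6 to 418 CPM in Arid1a-fl and from 73.2 to 485 CPM in control tumours, and their part in the Baz1a difference was not tested. In hSS1 Baz1a ran from 8.25 to 28.7 CPM in control and from 7.28 to 16.2 CPM in Pbrm1-fl tumours (log2 fold difference -0.43, adjusted p 0.650).

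Baz1b (chromosome 5, 135187264 to 135246129), the Williams syndrome transcription factor that follows the replication fork with Smarca5, ran from 204 to 326 CPM in hSS2 control tumours with a median of 271 CPM. In Arid1a-fl tumours it ran from 261 to 459 CPM with a median of 328 CPM, and 4 of 8 libraries lay above every control library. The log2 fold difference of 0.29 (SE 0.09) missed the threshold in edgeR (adjusted p 0.0727) and passed it in DESeq2 (adjusted p 0.0326). It was 0.36 against control libraries of the same range (adjusted p 0.0631). Baz1b went with the 20 proliferation genes over 37 libraries (r = 0.61, and 0.56 after centring), which summed to between 577 and 3461 CPM in Arid1a-fl and between 236 and 2391 CPM in control tumours. It went against the 8 macrophage markers (r = -0.57). The part of either list in the difference was not tested. Medians were 295 CPM in Arid1b-fl and 267 CPM in Pbrm1-fl tumours (adjusted p 0.920 and 0.943). In hSS1 the control libraries held 271, 254, 264, 375 and 401 CPM and the Pbrm1-fl libraries ran from 306 to 361 CPM (log2 fold difference 0.13, adjusted p 0.721). Cecr2 and Baz1b went against each other, with r = -0.57 over the 37 hSS2 libraries (-0.36 after centring) and -0.82 over the 9 of hSS1.

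Baz2a (chromosome 10, 128091577 to 128129303), the TIP5 subunit of NoRC known for silencing ribosomal RNA genes, was higher in Pbrm1-fl than in Arid1a-fl tumours. The Pbrm1-fl libraries ran from 184 to 334 CPM (median 222 CPM), the Arid1a-fl libraries from 146 to 193 CPM (median 164 CPM) and the control libraries from 115 to 281 CPM (median 166 CPM). The log2 difference, Arid1a-fl minus Pbrm1-fl, was -0.49 (SE 0.14, adjusted p 0.0200), with 6 of 8 Arid1a-fl libraries below every Pbrm1-fl library. It was called in 15 of 16 fits that each left out 1 library, and was -0.38 without Pbrm1-fl replicate 3 (adjusted p 0.0706). With each group set against control libraries of its own range it was -0.94 (adjusted p 0.0259). In this comparison 12.3% of 20083 genes were called. Of the members these were Baz2a and Cecr2, and the low Cecr2 values of the Arid1a-fl libraries were those that led to its choice, so that nothing is read from the count. Over the 37 hSS2 libraries Baz2a went against the synovial sarcoma markers (r = -0.57), proliferation genes (-0.40) and endothelial markers (-0.31). Medians in Pbrm1-fl and Arid1a-fl tumours were 517 and 768 CPM for sarcoma, 1016 and 1557 CPM for proliferation, and 333 and 277 CPM for endothelial genes. The part of these lists in the Baz2a difference was not tested.

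Against controls, Baz2a in Pbrm1-fl tumours had a log2 fold difference of 0.39 (SE 0.13), with all 8 libraries above the control median, and did not pass the threshold (adjusted p 0.0531). It passed in 6 of 21 fits that each left out 1 library, namely those without control replicates 4, 8, 12 and 13 or Pbrm1-fl replicates 2 and 6 (adjusted p 0.0145 to 0.0496), and against the 4 control libraries of the same range (0.63, adjusted p 0.0362). In Arid1a-fl and Arid1b-fl tumours it was -0.10 and -0.07 (adjusted p 0.653 and 0.972). In hSS1 the control libraries held 251, 254, 235, 137 and 156 CPM and the Pbrm1-fl libraries 190, 148, 263 and 175 CPM (-0.09, adjusted p 0.881).

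Baz2b (chromosome 2, 59899363 to 60209839) ran from 146 to 272 CPM in hSS2 control tumours (median 187 CPM). Its medians were 176 CPM in Arid1a-fl, 202 CPM in Arid1b-fl and 167 CPM in Pbrm1-fl tumours, with log2 fold differences of -0.12, 0.04 and -0.23 (adjusted p 0.497, 0.988 and 0.170). In hSS1 the medians were 214 CPM in control and 236 CPM in Pbrm1-fl tumours (0.04, adjusted p 0.936). No group of Baz2b libraries stood apart from its controls.

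**Figure D5:**
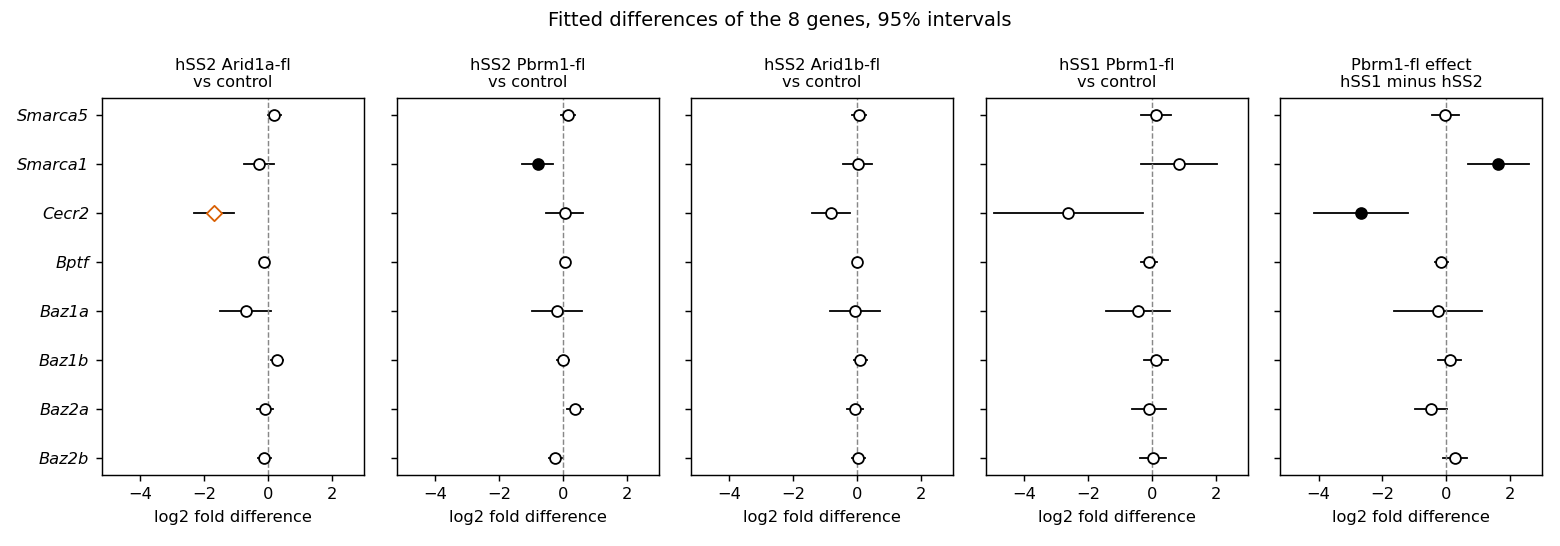
Fitted log2 fold differences of the 8 genes (points) with 95% intervals in the 4 comparisons with controls and in the difference of the Pbrm1-fl effect between hSS1 and hSS2. Filled points passed an adjusted p of 0.05 (Smarca1 in hSS2 Pbrm1-fl, and Cecr2 and Smarca1 in the difference), open points did not, and the open diamond is the Cecr2 difference that led to the choice of genes.

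The numbers of the 8 genes called against controls are given here beside the share of all genes called, and are not read as a result about the 8. In hSS2 Pbrm1-fl tumours 1 of 8 was called, where 7.35% of 20083 genes were, and the median log2 fold difference of the 8 was 0.04 against -0.0042 over the genes tested. In Arid1a-fl tumours 3.17% of genes were called, and of the members only Cecr2, whose place there was fixed by the choice of genes, so that nothing is read from this count. The median over the 8 was -0.12 against -0.04 over the genes tested. Arid1b-fl tumours gave 0 of 8 (1 of 8 with an unadjusted p under 0.05) where 0.0548% of genes were called. The hSS1 Pbrm1-fl tumours gave 0 of 8 by edgeR (1 of 8 with an unadjusted p under 0.05, and 1 of 8 by DESeq2) where 0.00562% of genes were called. The direct comparison of Arid1a-fl with Arid1b-fl gave 0 of 8 (1 of 8 unadjusted) where 0.0996% of genes were called, and DESeq2 gave 0 as well. The shares of genes called are at the adjusted threshold. No share at an unadjusted p under 0.05 is given, so nothing is read from the unadjusted counts.

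Among 14 other ISWI accessory genes, Rbbp4, the histone chaperone shared by NURF and other complexes, rose in Arid1a-fl tumours. It ran from 154 to 271 CPM there and from 93.2 to 186 CPM in controls (log2 fold change 0.45, SE 0.12, adjusted p 0.0405), the 1 of 14 called where 3.17% of genes were. The 20 proliferation genes summed to a median of 1557 CPM in Arid1a-fl and 750 CPM in control tumours, the 6 adipocyte markers to 4.08 and 13.8 CPM and the 8 lymphocyte markers to 3.59 and 4.10 CPM, and their part in the Rbbp4 change was not tested. Myo1c is a myosin with a nuclear form that joins a Smarca5 complex with Baz1b, and counts per gene do not separate its forms. Its RNA rose in Pbrm1-fl tumours, from a control median of 233 CPM to 380 CPM (0.72, SE 0.17, adjusted p 0.0062). This was again 1 of 14, where 7.35% of genes were called. Myo1c was lower in Arid1a-fl than in Pbrm1-fl tumours by -0.84 (adjusted p 0.0032), where 12.3% of genes were called. No accessory gene was called by edgeR in the Arid1b-fl, hSS1 Pbrm1-fl or Pbrm1-fl effect comparisons, with 1, 1 and 2 of 14 at an unadjusted p under 0.05. The share of all genes at that unadjusted limit is not given, so nothing is read from these counts.

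Of 16 ATPases of other remodeller families, Chd1 fell in Pbrm1-fl tumours, at 78.2 to 89.1 CPM against 81.2 to 119 CPM (log2 fold change -0.26, SE 0.07, adjusted p 0.0138). There 7.35% of genes were called. Chd4, the ATPase of NuRD, and Chd9 were the 2 of 16 whose Pbrm1-fl effect differed between hSS1 and hSS2 (log2 differences -0.71 and 0.81, adjusted p 0.0221 and 0.0337), where 2.86% of genes were called. Chd5 was lower in Arid1a-fl than in Pbrm1-fl tumours (-1.71, SE 0.37, adjusted p 0.0021), with medians of 12.7 and 29.3 CPM, and Chd1 was higher (0.24, SE 0.07, adjusted p 0.0269). In that comparison 12.3% of genes were called, and nothing is read from these calls about the list.

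Of 20 other bromodomain genes, Kat2b, the acetyltransferase PCAF, fell in Arid1a-fl tumours, at 27.05 to 64.8 CPM against 43.7 to 91.3 CPM in controls (log2 fold change -0.61, SE 0.15, adjusted p 0.0288), and was the 1 of 20 called, where 3.17% of genes were. Against Pbrm1-fl tumours Arid1a-fl tumours were lower in Kat2b (-0.81, adjusted p 0.0013) and higher in Brd3 (0.40, adjusted p 0.0212) and Atad2b (0.27, adjusted p 0.0292). There 12.3% of genes were called, and nothing is read from these calls about the list. No other gene of these 3 lists passed the threshold in the comparisons with controls.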

How the data were processed

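Raw read counts per Ensembl gene were deposited by the authors as separate hSS2 and hSS1 tables. According to the study's methods and the submitters' processing notes, reads of rRNA-depleted stranded libraries were aligned with STAR 2.7.11 to mm10 and counted with featureCounts 1.6.3. The annotation release, strand setting and handling of multi-mapping reads are not given in the sources used here. Symbols, positions and exon lengths (union of exons) came from GENCODE M21 of GRCm38, which held 98.0% of the counts.

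Groups came from the genotype labels. The labels give no replicate numbers, so replicates were numbered in accession order. Every pair of same-group libraries differed by more than counting noise. Counts were filtered with filterByExpr, scaled by TMM and tested with two-sided quasi-likelihood F-tests (robust) in edgeR 4.0.16 and R 4.3.3, with Benjamini-Hochberg adjustment over all genes tested and a threshold of 0.05. A first fit held the hSS2 libraries, another those of hSS1, and the difference of the Pbrm1-fl effects used all 46 libraries. Log2 CPM had a prior count of 2. Correlations were computed with scipy 1.17.1. DESeq2 1.42.0, RLE scaling, no filter, fits without robust dispersions or with the compared groups alone, control libraries of the same mouse number range and each library left out were alternatives. Members, lists and tests were chosen with earlier results of these data known. Named genes were the 8 members, listed genes past the threshold (up to 4 per list and comparison), expressed genes within 250 kb of Cecr2, and the 4 genes most and least correlated with it. The fits were tested on simulated data.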

Additional observations from a re-analysis of the deposited data

Results flagged for a closer look

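Of 40 sets of 4 to 8 libraries (8 genes in 5 groups), 5 held a library set apart by a gap larger than Dixon's 95% critical value. For normally distributed values chance gives about 5% of sets. The gaps were taken on CPM without logs, so this share need not hold, and nothing is read from the count. Cecr2 stood at 22.4 CPM in hSS2 Arid1a-fl replicate 6, with the next library at 11.7 CPM, in the group that led to its choice. Smarca5 stood at 248 CPM in hSS2 Pbrm1-fl replicate 3, with the next at 161 CPM. Baz1a stood at 26.4 CPM in hSS2 Pbrm1-fl replicate 1, with the next at 14.3 CPM, and Baz1b at 380 CPM in hSS2 Pbrm1-fl replicate 8, with the next at 304 CPM. Bptf stood at 404 CPM in hSS1 Pbrm1-fl replicate 4, with the next at 354.5 CPM.

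The Pbrm1-fl effect differed between the hSS1 and hSS2 backgrounds for Cecr2 (log2 difference -2.68) and Smarca1 (1.63), by edgeR's test of the difference itself. Both calls used an estimate of spread shared between the backgrounds. Both were lost in several fits that left out 1 library, as given with those results. The fitted fall of Pbrm1 itself was smaller in hSS1, as given there, but that difference did not pass the threshold by edgeR (adjusted p 0.125).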

How the results depend on the processing

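Counts of members past the threshold that include Arid1a-fl libraries count Cecr2, which was chosen for its low level there, so that its calls and their stability are no test. With it, the Arid1a-fl comparison had 1, 2 with DESeq2 (Baz1b added), and 1 to 2 with 1 library left out. The hSS2 Pbrm1-fl comparison had 1, 0 with the compared groups alone (Smarca1, adjusted p 0.0529), and 0 to 2 with 1 library left out. The hSS1 Pbrm1-fl comparison had 0, 1 with DESeq2, and 0 with any 1 library left out. The difference of the Pbrm1-fl effects had 2, and 0 without the filter, against control libraries of the same range or with the compared groups alone, and 0 to 2 with 1 library left out. For Cecr2 the adjusted p was then 0.0619, 0.248 and 0.0746. Arid1a-fl minus Pbrm1-fl had 2 (Cecr2 and Baz2a), 4 with DESeq2 (Baz1b and Bptf added), and 1 to 3 with 1 library left out. Counts of 0 for Arid1b-fl and for Arid1a-fl minus Arid1b-fl were 0 in every alternative run. The cause of these changes was not tested.

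Uncalled values near 0 changed sign in places (log2). Against same-range controls these were, in hSS2 Pbrm1-fl, Baz1b (-0.027) and Baz2b (0.016), in Arid1b-fl, Smarca5 (-0.011) and Baz2b (-0.047), in Arid1a-fl minus Pbrm1-fl, Smarca5 (-0.0061) and Baz2b (-0.24), in hSS1, Baz1b (-0.015) and Baz2a (0.14), and in the difference of effects, Baz1a (0.10) and Baz1b (-0.016). Baz1b in hSS2 Pbrm1-fl was -0.0020 with RLE, -0.0018 with DESeq2 and -0.0056 with the compared groups alone, and Smarca1 in Arid1b-fl was -0.0014 and -0.0013 with RLE and DESeq2. The Cecr2 and Arid1a correlation in Arid1b-fl tumours was -0.012 without TMM. With 1 library left out, the values that changed sign ranged, in hSS2 Pbrm1-fl, from -0.038 to 0.20 for Cecr2, -0.0035 to 0.22 for Smarca5, -0.48 to 0.068 for Baz1a and -0.059 to 0.045 for Baz1b. In Arid1b-fl they ranged from -0.12 to 0.067 for Smarca1, -0.38 to 0.17 for Baz1a, -0.0086 to 0.086 for Baz2b and -0.045 to 0.0078 for Bptf. Smarca5 in Arid1a-fl minus Pbrm1-fl ranged from -0.033 to 0.21, and Baz2a in Arid1a-fl minus Arid1b-fl from -0.058 to 0.019. In hSS1 Pbrm1-fl, Baz2a ranged from -0.26 to 0.040 and Baz2b from -0.029 to 0.18, and in the difference of effects Smarca5 ranged from -0.15 to 0.13 and Baz1a from -0.49 to 0.056. No paired analysis was possible because the labels give neither replicate numbers shared between groups nor the litters of the mice. The comparison with control libraries of the same mouse number range came nearest to one. Counts of single tumours with no repeat libraries limit each value, and low genes (Cecr2, Baz1a) rest on the fewest reads.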
